A study of Mus musculus with 9 samples.

Results

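The genes described here are 37 genes of the Wnt pathway and the crypt base, followed in the colons of mice that differ in Shmt1, the gene of the cytoplasmic serine hydroxymethyltransferase (cSHMT). They were taken by name: every probe set annotated with a member's symbol was used, and each gene was read from the probe set with the highest mean over the 9 arrays, called its leading probe set below. The annotation named 33 of the 37 members among 12393 genes, with 63 of the 22626 probe sets that are not controls. Znrf3, Lgr4, Ephb2 and Tcf7 were not named, and their signals are not analysed here. Leading probe sets of 22 members were bright enough to test and those of 11 were too dim to judge.

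The arrays measured the proximal colon of wild-type, heterozygous and mutant cSHMT mice, 3 mice of each genotype, 1 Affymetrix array per mouse. All 9 mice were on a C57Bl/6 background after 10 generations of back-crossing and were 9 weeks old. All of them, the wild-type controls included, were weaned at 3 weeks onto a diet without folate and choline, so no group shows a colon with a full supply; the labels give the time on diet as 5 weeks in one place and 6 weeks in another. RNA came from the tissue as a whole, so epithelium, stroma and muscle were measured together, and fewer cells of a type cannot be told apart from less RNA per cell.

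Wnt proteins bind Frizzled receptors with the co-receptors Lrp5 and Lrp6. Without that signal, a destruction complex built on Apc and Axin, with the kinases Gsk3b and Csnk1a1, marks beta-catenin for degradation; with it, beta-catenin enters the nucleus and works with TCF and LEF factors on target genes. In the intestine this signal is strongest at the crypt base, where Lgr5-positive stem cells lie, and many targets (Axin2, Nkd1, Rnf43, Notum, Apcdd1) inhibit the pathway in turn.

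The signal of Shmt1 itself followed the labels, at 117 ± 3.46 (SD, n = 3) in the mutant, 303 ± 31.6 in the heterozygous and 595 ± 43.2 in the wild-type group. All 14 absorptive colonocyte markers on the array were bright enough to test, with signals of 30 to 8474. Car1, a colonocyte carbonic anhydrase, read 4901 to 7366 over the 9 arrays, while Aqp8 of the same list read 30 to 645.8. Of 6 small intestinal genes on the array Lct and Apoa4 were too dim to test. Rbp2 and Anpep read 98.5 to 300.3, and Fabp2 (5859 to 8732) and Fabp6 (1970 to 4190) were bright. The signal ratio of the 3′ to the 5′ beta-actin control probe sets, a measure of RNA length, was 4.46 to 5.02 on the 3 arrays numbered 1 and 2.52 to 3.75 on the other 6; each genotype has 1 array numbered 1. From the array numbered 1 to that numbered 3 the ratio fell in each genotype. It was 5.017, 3.152 and 2.519 in wild-type, 4.455, 3.045 and 2.569 in heterozygous and 4.839, 3.753 and 2.73 in mutant colons. Shmt1 lies on chromosome 11, as do 4 members on the array (Axin2, Rnf43, Notum and Sox9).

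RefSeq promoters of build GRCm38.p6, each 250 bases before and 50 after a gene's start, were at hand for 21 of the 37 members. They were looked up by name, whether or not the array named the gene. CTTTGAT or CTTTGAA, letters that TCF and LEF factors are known to bind, was searched on both strands. At least 1 promoter of 2 of the 21 members (9.52%) held it, against 9.88% of all 27025 genes in the table, so the members held it about as often as other genes. The 2 stretches are shown because they are the member windows with a match; the capitals mark it. Sp5, a transcription factor gene that Wnt signals induce, has it on its own strand, 104 to 98 bases before the start at chr2:70474673-70474922 (+). Tnfrsf19, a receptor gene of the crypt base, has it on the opposite strand, 202 to 196 bases before the start at chr14:61037988-61038237 (-).
Sp5: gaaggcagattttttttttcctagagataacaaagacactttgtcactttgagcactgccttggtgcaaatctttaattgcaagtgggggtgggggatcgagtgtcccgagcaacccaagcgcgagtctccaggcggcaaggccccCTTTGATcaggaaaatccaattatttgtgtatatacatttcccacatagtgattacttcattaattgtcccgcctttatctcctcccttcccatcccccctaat
Tnfrsf19: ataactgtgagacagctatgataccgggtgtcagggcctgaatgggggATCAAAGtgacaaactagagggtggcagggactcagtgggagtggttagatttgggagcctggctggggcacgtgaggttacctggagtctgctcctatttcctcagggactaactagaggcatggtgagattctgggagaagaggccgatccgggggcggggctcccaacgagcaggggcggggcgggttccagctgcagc
Both of these members were too dim to judge on the arrays, so their signals say nothing about the matches.

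No member passed the test in any comparison of genotypes. The test was limma on quantile-normalized log2(signal + 16), with Benjamini-Hochberg adjustment over all 13576 probe sets bright enough to test and a threshold of 0.05; fold changes are on that log2 scale, which understates the change of dim genes. Between mutant and wild-type colons 0 of 22 leading probe sets passed, with 0.0221% of all tested probe sets passing, and 0 of 22 had an unadjusted p under 0.05, with 3.84% of all probe sets there. Of the 22 members, 11 were higher and 11 lower in the mutant (51% of all probe sets were higher), with fold changes from -0.28 to 0.17 and a median of -0.0047 against 0.0036 over all tested probe sets. The 95% interval lay within a 1.5-fold change either way for 19 of 22 leading probe sets and within a 2-fold change for all 22. Over all 36 tested probe sets of members these counts were 25 and 34. Further probe sets of Sox9 and Ascl2 had intervals that reached 2.635-fold and 2.015-fold. Differences inside those intervals were not detectable with 3 colons a genotype.

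Heterozygous colons were compared with the same 3 wild-type colons, so these comparisons share their controls. Again 0 of 22 members passed, and 0% of all probe sets passed; 2 of 22 (9.09%) had an unadjusted p under 0.05 against 8.01% of all probe sets. The median fold change was 0.05 against -0.0044 over all, with 12 members higher and 10 lower (49% of all were higher). Between mutant and heterozygous colons 0 of 22 passed, with 0.0221% of all probe sets passing, and 2 of 22 (9.09%) had an unadjusted p under 0.05 against 7.56%. There the median was -0.05 against 0.0013, with 8 members higher and 14 lower in the mutant (50.4% of all were higher). The members' shares with an unadjusted p under 0.05 were near those of all probe sets in both of these comparisons. The share that was higher in mutant against heterozygous colons (8 of 22) was below that of all probe sets (50.4%).

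**Figure D1:**
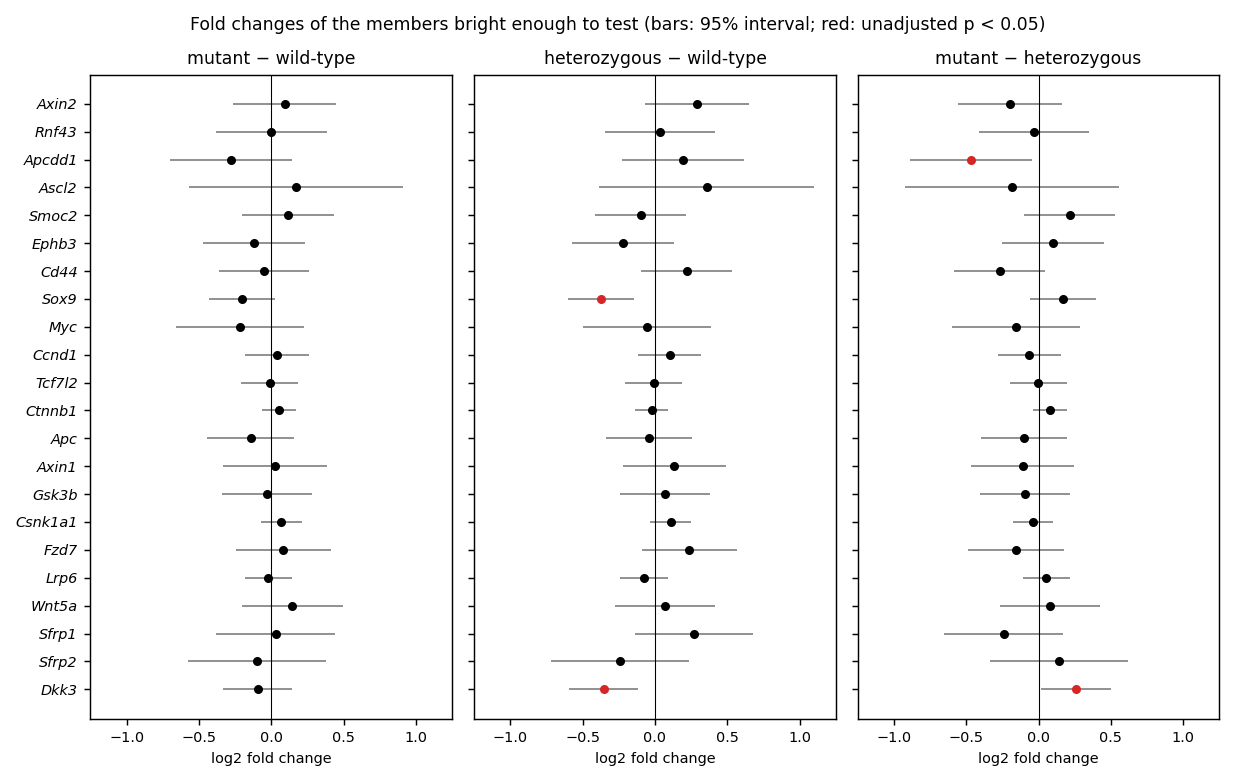
Log2 fold changes (x axis) of the 22 members bright enough to test (y axis), in 3 panels for the 3 comparisons, with 95% intervals; red marks an unadjusted p under 0.05. No member is red for mutant against wild-type, where all fold changes lie between -0.28 and 0.17, and 2 are red in each of the other panels.

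Among the feedback inhibitors, Axin2, a scaffold of the destruction complex and a standard readout of Wnt signalling, had signals of 540, 733 and 810 in wild-type mice, 663, 897 and 1015 in heterozygotes and 690, 644 and 888 in mutants. The groups overlapped, and in each genotype the array numbered 3 gave the highest value. The mutant differed from wild-type by 0.09 (SE 0.16, 95% interval -0.27 to 0.45, adjusted p = 0.998) and the heterozygote by 0.29 (SE 0.16, adjusted p = 0.679). Without the 3 arrays numbered 1 the first of these was -0.02.

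Apcdd1, a membrane protein that binds Wnt and its co-receptors, read 155, 169 and 122 in wild-type, 151, 230 and 153 in heterozygous and 98.7, 131 and 126 in mutant colons. The 3 mutant values lay below the 3 heterozygous values, while wild-type overlapped both. Mutant against heterozygous colons gave -0.47 (SE 0.19, unadjusted p = 0.0326, adjusted p = 0.649), the largest fold change of a leading probe set in any comparison; without the second heterozygous array it was -0.30. Rnf43, a ubiquitin ligase that removes Frizzled receptors, read 150 to 258 over the 9 arrays, with fold changes of 0.0005 in mutant and 0.03 in heterozygous colons against wild-type.

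In the crypt base group, 0 of 7 tested members passed in any comparison. Sox9, a transcription factor of crypt progenitors, had leading signals of 3045, 2261 and 2202 in wild-type mice, 1679, 2011 and 1933 in heterozygotes and 2271, 2082 and 2028 in mutants. Every heterozygous value lay below every wild-type and every mutant value. The heterozygote differed from wild-type by -0.37 (SE 0.10, 95% interval -0.60 to -0.15, unadjusted p = 0.00405, adjusted p = 0.490), the smallest p of any member. Without the 3 arrays numbered 1 it was -0.19. The mutant differed from wild-type by -0.20 (adjusted p = 0.998).

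A second Sox9 probe set gave the other direction. It read 94.5, 309 and 414 in wild-type mice, 304, 463 and 415 in heterozygotes and 312, 273 and 539 in mutants. The groups overlapped, and the first wild-type array was far below the rest. The heterozygote differed from wild-type by 0.69 there (unadjusted p = 0.0877), so the direction of Sox9 depends on which probe set is read.

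Overlap of genotypes was judged on the deposited signals, before normalization. Groups that did not overlap were seen for 2 of 22 leading probe sets (9.09%) in heterozygous against wild-type colons, Sox9 and Dkk3, against 11.9% of all tested probe sets. In mutant against heterozygous colons there were 3 of 22 (13.6%), Apcdd1, Sox9 and Dkk3, against 10.3%. Mutant and wild-type colons overlapped for all 22, against 6.99% of all probe sets that did not overlap.

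Cd44, an adhesion receptor and Wnt target, read 859, 970 and 1111 in wild-type mice, 1085, 1193 and 1184 in heterozygotes and 794, 856 and 1229 in mutants. The third mutant array was above the heterozygous ones and the other mutant arrays were below them. The difference of mutant from heterozygous was -0.27 (SE 0.14, adjusted p = 0.687). Myc, a growth-promoting transcription factor and Wnt target, read 296, 361 and 281 in wild-type mice, 234, 318 and 360 in heterozygotes and 202, 221 and 401 in mutants. Myc spread more within the mutants than between genotypes, and its mutant difference from wild-type was -0.21 (SE 0.20, adjusted p = 0.998).

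Ascl2, a transcription factor of crypt base stem cells, spread most: 107 to 291 in mutants, 136 to 276 in wild-type and 169 to 305 in heterozygotes. Its fold change of 0.36 in heterozygotes had an interval of -0.38 to 1.10. No other leading probe set had an interval in that comparison that reached past a 2-fold change. Smoc2, a secreted matrix protein of the crypt base, Ephb3, a receptor that positions cells along the crypt, and the cyclin gene Ccnd1 had fold changes of 0.12, -0.12 and 0.04 in mutants against wild-type. In heterozygotes these were -0.10, -0.22 and 0.10.

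**Figure D2:**
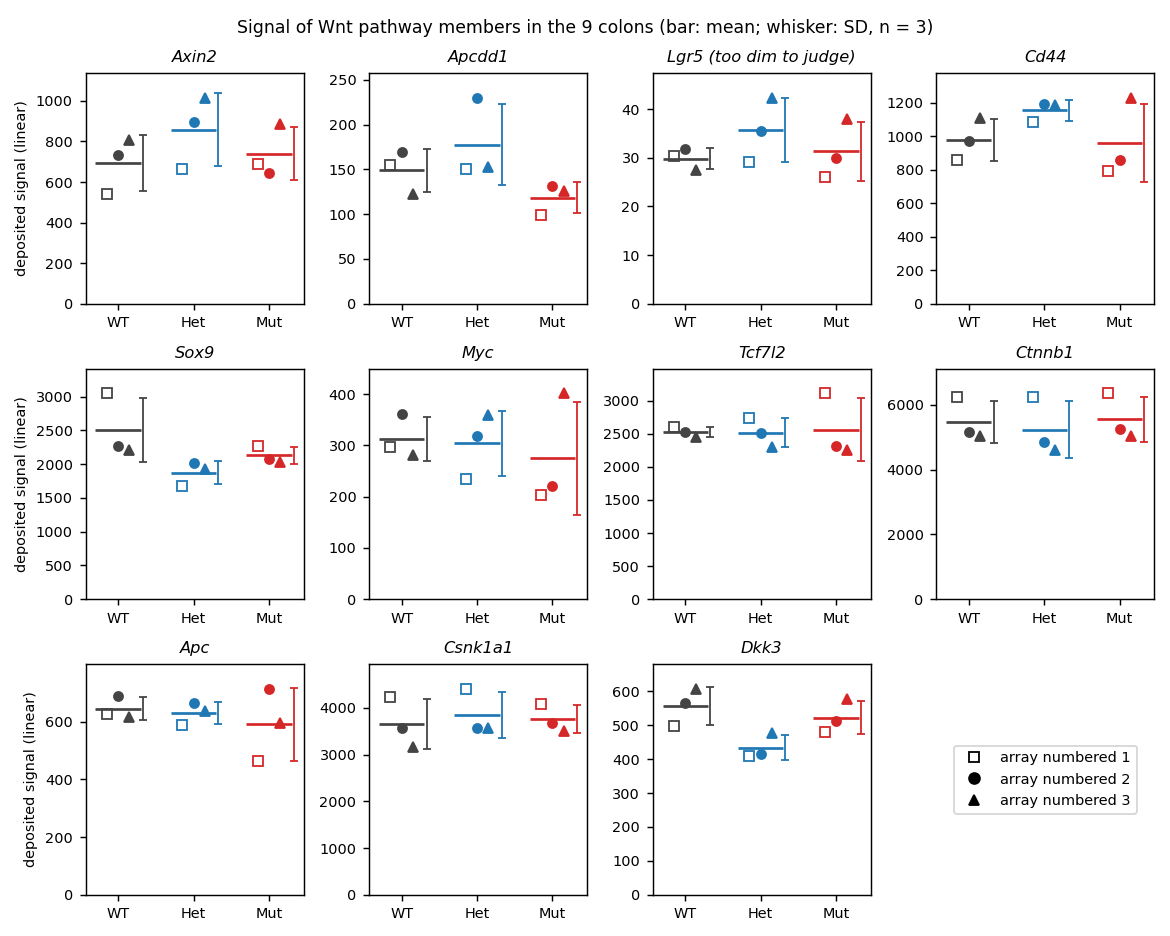
Deposited linear signal (y axis, from 0) of 11 members in each colon, by genotype (WT, Het, Mut), with the mean as a bar and the SD as a whisker (n = 3); symbols give the array number. The heterozygous Sox9 and Dkk3 values lie below those of the other genotypes, while the genotypes overlap for Axin2, Myc, Ctnnb1, Apc and Tcf7l2.

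Of the TCF and LEF factors, only Tcf7l2, the main partner of beta-catenin in intestinal epithelium, could be tested. Its leading probe set read 2608, 2521 and 2451 in wild-type mice, 2739, 2509 and 2302 in heterozygotes and 3108, 2320 and 2259 in mutants. In deposited signal the array numbered 1 was the highest in each genotype. After normalization it was the highest in heterozygotes and mutants but not in wild-type. Fold changes were -0.0099 in mutants and -0.0078 in heterozygotes against wild-type, with intervals of -0.21 to 0.19 and -0.20 to 0.19.

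For beta-catenin and its destruction complex, 0 of 5 tested members passed in any comparison. Ctnnb1, which encodes beta-catenin, read 6226, 5145 and 5034 in wild-type mice, 6232, 4863 and 4590 in heterozygotes and 6346, 5250 and 5033 in mutants. The genotypes overlapped, and in deposited signal the array numbered 1 was again the highest in each. After normalization it was the highest in heterozygotes only. The mutant differed from wild-type by 0.06 (SE 0.05, 95% interval -0.06 to 0.17, adjusted p = 0.998).

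Apc, the scaffold of the destruction complex, read 627, 689 and 617 in wild-type mice, 587, 664 and 636 in heterozygotes and 463, 713 and 594 in mutants. One mutant array was the lowest of all 9 and another the highest, so the mutants spanned the other genotypes. The mutant differed from wild-type by -0.14 (SE 0.14, adjusted p = 0.998). Csnk1a1, the kinase that phosphorylates beta-catenin first, read 4236, 3573 and 3159 in wild-type mice, 4406, 3577 and 3564 in heterozygotes and 4092, 3682 and 3507 in mutants. Its fold changes of 0.07 in mutants and 0.11 in heterozygotes were within the spread of the arrays. Those of Axin1, a scaffold, and Gsk3b, the second kinase, were 0.03 and -0.03 in mutants and 0.13 and 0.07 in heterozygotes.

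Of the receptors, Lrp6 read 2019 to 2456 and Fzd7 561 to 902 over the 9 arrays. The genotypes overlapped for both. Lrp6 differed by -0.02 in mutants and -0.08 in heterozygotes against wild-type, and Fzd7 by 0.08 and 0.24.

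Among ligands and secreted antagonists, Dkk3, a secreted protein of the Dickkopf family, read 498, 565 and 607 in wild-type mice, 410, 415 and 478 in heterozygotes and 479, 512 and 577 in mutants. The heterozygous values were below all others, the highest of them just under the lowest mutant value. The heterozygote differed from wild-type by -0.35 (SE 0.11, unadjusted p = 0.0077, adjusted p = 0.555), and the mutant from the heterozygote by 0.26 (SE 0.11, unadjusted p = 0.0367, adjusted p = 0.654). A second Dkk3 probe set differed the same way, by -0.25 and 0.16.

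Markers of muscle and matrix, from 12 marker lists read, are given beside these values, and none passed. In heterozygotes more tested genes were lower than higher against wild-type in every list but that of Paneth cells (2 of 2 higher). Lymphocyte (median -0.66), enteric neuron and glia (-0.08) and small intestine markers (-0.14) were lower in 4 of 4 each. Macrophage markers were lower in 6 of 7 and absorptive colonocyte markers in 10 of 14. In heterozygotes all 9 tested smooth muscle markers were lower than in wild-type (median -0.20, 3 with an unadjusted p under 0.05), where 49% of all probe sets were higher, and the summed signal of the list was 24710 to 26550 against 30220 to 30620 (wild-type) and 27010 to 32060 (mutant). In mutants 7 of the 9 were lower (median -0.02). Of fibroblast and matrix markers, 8 of 12 were lower than wild-type in heterozygotes (median -0.15) and 9 of 12 in mutants (median -0.09). Their sums were 20280 to 22240 and 20330 to 22870, which overlap, against 23050 to 25190 in wild-type. No gene of either list was at 0. Their part in the Dkk3 and Sox9 values was not tested.

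Wnt5a, a ligand of the non-canonical branch made by stroma, read 436 to 677 over the 9 arrays, with fold changes of 0.15 in mutants and 0.07 in heterozygotes. Sfrp1, a secreted Wnt-binding antagonist, read 131 to 173 in wild-type mice, 134 to 236 in heterozygotes and 137 to 162 in mutants, with fold changes of 0.27 in heterozygotes and 0.03 in mutants. Sfrp2, of the same family and just above the limit of brightness, had fold changes of -0.24 and -0.10. Over the 9 arrays the log2 signals of Sfrp1 and Sfrp2 had Pearson's r = -0.01 (exact permutation p = 0.978, two-sided) and Spearman's rho = 0.05 (exact permutation p = 0.912). Without the 2 arrays farthest from the median of Sfrp1, r was 0.14 (exact permutation p = 0.737, n = 7), and without the arrays numbered 1 it was -0.14 (exact permutation p = 0.81, n = 6). It was the 1 pair of members that could be correlated, since the other planned pairs include a gene that was too dim or not named, so no adjustment was needed.

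The 11 members too dim to judge were Nkd1, Notum, Sp5, Lgr5, Tnfrsf19, Prox1, Lef1, Fzd5, Lrp5, Wnt4 and Wif1. Their leading signals ran from 1 to 90.6, while the 27 Bacillus control probe sets on these arrays, which have no mouse target, reached 10.9. The limit of brightness, the 40th percentile of all probe sets, stood at a signal of about 75.5. Tnfrsf19 lay just under it (59.9 to 90.6) and Sfrp2 just above (56.3 to 120). Lgr5, the receptor that marks crypt base stem cells, read 30.3, 31.8 and 27.4 in wild-type, 29.1, 35.6 and 42.3 in heterozygous and 26.1, 30 and 38 in mutant colons. The genotypes overlapped, and at this brightness a difference could not be judged. Prox1 and Lef1 stayed at or under 7.7.

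Of the 27 member probe sets too dim to test, the genotypes did not overlap for 1 between mutant and wild-type, 3 between heterozygous and wild-type and 3 between mutant and heterozygous colons, beside 8.25%, 9.94% and 10.2% of all such probe sets. The counts were near these shares. A further Sfrp1 probe set read 45.3, 87.7 and 75.9 in heterozygous colons against 31, 43.5 and 36.3 (wild-type) and 31.5, 39.3 and 36.3 (mutant), so the heterozygous values were above all others. Wif1, a secreted Wnt inhibitor, was 39.6 to 48.7 in heterozygous and 34.1 to 39.4 in wild-type colons. Sp5 was 14.7 to 25.5 in mutant and 26.3 to 42.5 in heterozygous colons. The others were probe sets of Csnk1a1 (higher in mutant than wild-type), Ccnd1 (higher in heterozygous than wild-type) and Tnfrsf19 (higher in mutant than heterozygous). After normalization the groups compared here overlapped for Wif1, Sp5 and the Ccnd1 probe set.

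Genes with several probe sets gave a second view of each member. For 11 members more than 1 probe set could be tested. In mutants against wild-type, the probe sets of 8 genes shared 1 sign and those of Sox9, Tcf7l2 and Ctnnb1 did not; in heterozygotes 4 genes shared 1 sign and 7 did not. A probe set of Tcf7l2 read 1050, 961 and 1002 in wild-type mice, 908, 832 and 915 in heterozygotes and 942, 829 and 860 in mutants. All wild-type values were above all others there, yet the difference did not pass (mutant -0.20, unadjusted p = 0.117; heterozygote -0.19, unadjusted p = 0.135), and the leading probe set of the gene differed by -0.0099 and -0.0078.

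Probe sets of one gene also differed in how they followed the beta-actin ratio. A slope of the log2 signal on the log2 ratio was fitted with genotype in the model. A slope of -1 means a halved signal for each doubling of the ratio. Since the ratio fell from number 1 to number 3 in each genotype, this fit cannot be told apart from a change in that order of array number. It was the later of 2 such fits tried after the values had been seen; the first set the 3 arrays numbered 1 against the other 6 and passed 0 of 36 member probe sets and 0 of all 13576 (7 of 36 had an unadjusted p under 0.05, against 18.9% of all). With the ratio, limma passed 4 of 36 member probe sets (11.1%), against 1361 of all 13576 tested probe sets (10%). All 4 fell as the ratio rose, as did 753 of the 1361 (5.55% of all 13576). An unadjusted p under 0.05 was seen for 11 of 36 (30.6%), against 30.2%. The members' share was near that of all probe sets. None of the 22 leading probe sets passed, with those of Fzd7 (slope -0.39, adjusted p = 0.0524) and Axin2 (slope -0.42, adjusted p = 0.0537) just above 0.05; 4 of the 14 others passed.

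The 4 were a pair of Ctnnb1 probe sets and 1 each of Sox9 and Apc. The dimmer Ctnnb1 probe set read 257, 310 and 309 on the arrays numbered 1 of wild-type, heterozygous and mutant colons and 579, 569 and 670 on those numbered 3. On the second arrays it read 483, 520 and 298, the mutant value there being below that on the array numbered 1. The values on the arrays numbered 1 were all below those on the arrays numbered 3. The slope of this probe set was -0.96 (limma adjusted p = 0.0176). The other of the pair had a slope of -0.88 (adjusted p = 0.0125), while the leading probe set of the gene had -0.02. The Sox9 probe set, the one that gave the other direction above, had a slope of -1.07 (adjusted p = 0.0343) against 0.06 for the leading one. That of Apc had -0.68 (adjusted p = 0.045) against 0.03. Of all probe sets tested, 8 in 10 had a slope between -0.39 and 0.38.

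These calls, like those of all probe sets, rest on few arrays. Without the first wild-type array, the third wild-type array, the third mutant array, or the 3 arrays numbered 1, none of the 36 passed and 0% of all probe sets did, while 8, 7, 10 and 12 of the 36 had an unadjusted p under 0.05. Without the second wild-type array 2 passed, against 6.44% of all probe sets. Without the first mutant array 7 passed, against 10.2%, and without the second mutant array 6, against 10.9%. With the values as deposited 15 passed, against 31.7%, and with median centring 12, against 32.3%. With the 3′ to 5′ ratio of the Gapdh controls in place of beta-actin 7 passed, against 9.68%.

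Leading probe sets were among the calls in some of these settings. That of Axin2 passed without the first or the second mutant array, with the Gapdh ratio and with a filter at the 60th percentile, and that of Fzd7 without the second mutant array and with that filter. As deposited 7 leading probe sets passed, Axin2 and Fzd7 among them, and with median centring 5, with neither of them.

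**Figure D3:**
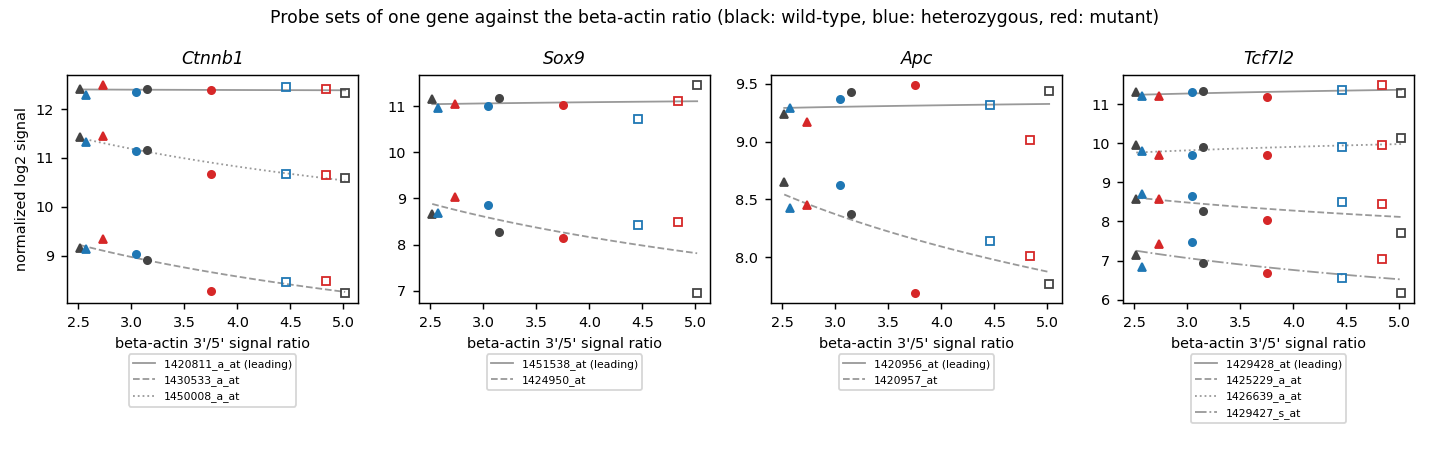
Normalized log2 signal (y axis) of every tested probe set of Ctnnb1, Sox9, Apc and Tcf7l2 on the 9 arrays against the beta-actin 3′ to 5′ signal ratio (x axis), with lines for the fitted slopes; colours give the genotype and symbols the array number. Leading probe sets (solid lines) run nearly flat, while the Ctnnb1, Sox9 and Apc probe sets with slopes of -0.68 to -1.07 drop as the ratio rises. In mutants their first and second arrays both lie below the third.

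**Figure D4:**
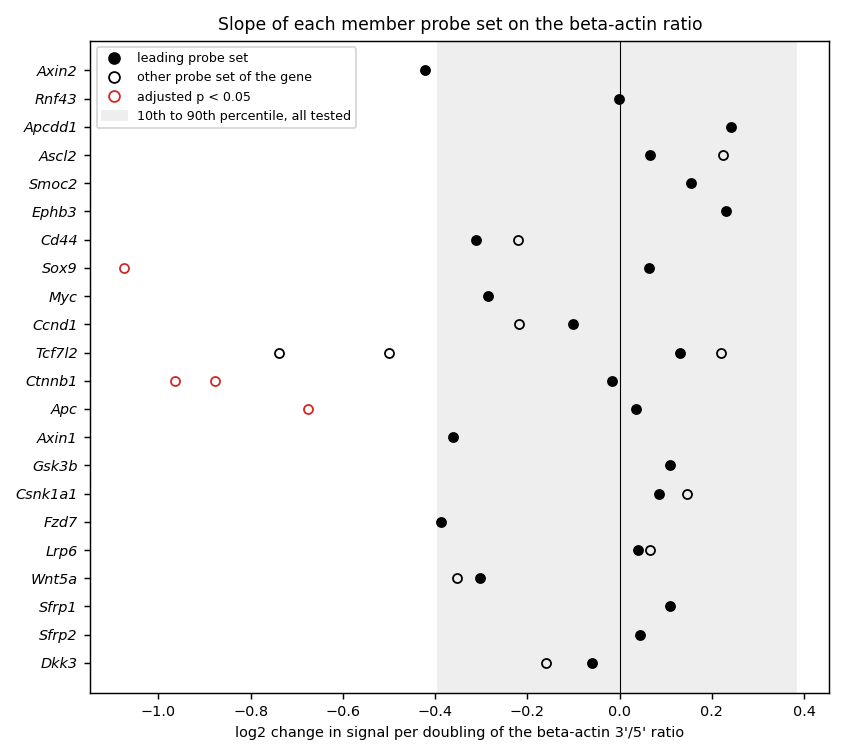
Slope of the log2 signal per doubling of the beta-actin ratio (x axis) for each of the 36 tested member probe sets (y axis: gene), filled for leading probe sets and red where the adjusted p was under 0.05; the grey band holds the middle 8 in 10 of all probe sets. The 4 red points are all negative and are not leading probe sets; the leading probe sets of Axin2 (-0.42) and Fzd7 (-0.39) just miss the threshold.

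The rest of the pathway was read from 105 further genes (other ligands, receptors, antagonists, intracellular genes and crypt genes). Of these, 94 were named on the array and 57 could be tested. None passed in any comparison; unadjusted p was under 0.05 for 2 of 57 in mutants against wild-type, 8 in heterozygotes against wild-type and 9 in mutants against heterozygotes, beside 3.84%, 8.01% and 7.56% of all probe sets. In mutants 38 were higher and 19 lower than in wild-type (median 0.04), in heterozygotes 36 and 21 (median 0.06), and in mutants against heterozygotes 28 and 29 (median -0.01). Of all probe sets 51%, 49% and 50.4% were higher. The shares with an unadjusted p under 0.05 lay above those of all probe sets in both comparisons with heterozygotes. The shares that were higher lay above in both comparisons with wild-type. Neither excess was tested.

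Bcl9, a co-activator that binds beta-catenin, had among the smallest p-values against wild-type for both genotypes. It read 424, 778 and 804 in wild-type mice, 1237, 971 and 1098 in heterozygotes and 1100, 994 and 1012 in mutants. All wild-type values were below all others. The difference was 0.73 in heterozygotes (unadjusted p = 0.00236, adjusted p = 0.483) and 0.65 in mutants (unadjusted p = 0.00486, adjusted p = 0.998), against the same 3 wild-type arrays. Ctnnd1, which encodes p120 catenin, a cadherin partner, was 0.58 higher in heterozygotes (unadjusted p = 0.00226, adjusted p = 0.483). Tle1, a co-repressor of TCF factors, was -0.49 in mutants (unadjusted p = 0.0149, adjusted p = 0.998). Between mutant and heterozygous colons the smallest were Rhoa, a small GTPase, at 0.19 (adjusted p = 0.575), and the ligand Wnt5b, at 0.42 (adjusted p = 0.601).

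Genes of mitosis and the cell cycle were read beside these, and none of 14 tested passed. In mutants 12 were higher than in wild-type (median 0.19, 3 with an unadjusted p under 0.05), where 51% of all probe sets were higher. All 14 were higher than in heterozygotes (median 0.25, 2 with an unadjusted p under 0.05), where 50.4% of all were. In that comparison Myc differed by -0.16, the leading probe set of Ccnd1 by -0.06 and its other tested probe set by 0.29.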

How the data were processed

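Per the labels, about 50 ng of total RNA from each proximal colon was amplified with a NuGEN kit and hybridised to 1 Affymetrix array. The deposited values are linear signal intensity per probe set, made by the authors with GCOS per the submitters' processing notes; the notes name neither its version nor its settings. The trimmed mean of each array was 500.11 to 500.15, so the arrays had been scaled alike. Median signals still differed, at 129 to 136 on the arrays numbered 1 and 148 to 162 on the other 6. Only 3 arrays a genotype limit the precision. Of 22690 probe sets 64 were controls. Symbols came from the platform annotation, with 20380 probe sets naming 1 gene, 691 several and 1555 none; those with several were not used to name a member.

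Signals were quantile-normalized as log2(signal + 16), and 13576 probe sets with a mean at or above the 40th percentile were tested in 1 fit of all 9 arrays with limma 3.58.1 (lmFit, eBayes with trend; R 4.3.3), Benjamini-Hochberg adjusted, threshold 0.05. The fit was checked on simulated data with independent noise, for the mean size of the fitted changes. Normalization and the filter were left out of that check, and how often a given change would pass is not given here. Values in all 9 arrays are given for Axin2, Lgr5, Ctnnb1, Apc, Myc and Tcf7l2, for members whose genotypes did not overlap with an unadjusted p under 0.05, and for the 3 smallest p in each comparison; of other pathway genes, the 2 smallest. Members and gene lists were chosen with earlier results of these data known. The beta-actin slope, and the second probe sets of Sox9, Dkk3, Tcf7l2 and Sfrp1, were picked with their values in view; the slope replaced a fit on array number that had passed nothing. Alternatives were other normalizations, pseudocounts, filters, fits, probe set choices and leaving out arrays.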

Additional observations from a re-analysis of the deposited data

How the results depend on the processing

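No member passed in any of 3 comparisons under any of 24 alternatives. Deviations from the genotype means correlated at -0.06 to 0.46 between arrays of the same number (0.22 to 0.46 for number 3) and at -0.51 to 0.27 between others; not every same-number pair was above 0.1, so numbers were not taken as pairs. With the replicate block, 0 members passed. Each genotype has 1 array of each number, so the block cannot change a fold change. The medians therefore stayed at -0.0047, 0.05 and -0.05 (mutant and heterozygous against wild-type, then mutant against heterozygous). Leaving out 1 array, the medians ran from -0.0265 to 0.0279, -0.0001 to 0.0521 and -0.072 to -0.0118. Array weights moved the second to -0.048, passed 1 other pathway gene in heterozygotes (Ctnnd1, named after its value was seen) and gave the lowest adjusted p of Dkk3, 0.0608. Without the 3 arrays numbered 1 the third median was -0.0005.

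Signs turned, never past the threshold, in 32 values of named members and stayed in 516. Many of the 516 could not turn, because their setting leaves a gene's fold change as it was. Such settings were other filters, other eBayes options, a fit of only the genotypes compared and the replicate block. Leaving out an array of the genotype outside a comparison also changed no fold change. The 516 therefore overstate how stable the signs were. With the mean of a gene's probe sets, Sox9 was 0.191 in mutants and 0.1585 in heterozygotes, Ctnnb1 -0.0516, 0.0247 and -0.0763 in the 3 comparisons, Apc 0.045 in heterozygotes, and Tcf7l2 0.0631 in mutants and 0.1122 in heterozygotes. Tcf7l2 in mutants was 0.0052 as deposited and 0.0161 with median centring against wild-type, and 0.0139, 0.0528 and, with array weights, 0.0139 against heterozygotes; with the beta-actin covariate it was 0.0006 in heterozygotes. Axin2 in mutants was -0.0005 with array weights and -0.0216 without the arrays numbered 1, which put Myc in heterozygotes at 0.091. As deposited, r of Sfrp1 and Sfrp2 was 0.0997.

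Leaving out 1 array, signs turned for Axin2 in mutants (-0.0201 to 0.1943), Apc in mutants against heterozygotes (-0.2332 to 0.0036), Ctnnb1 (-0.0649 to 0.0118) and Myc (-0.1687 to 0.054) in heterozygotes, and Tcf7l2 (-0.1093 to 0.0407, -0.0405 to 0.0343 and -0.1015 to 0.0484). Member probe sets with a beta-actin slope numbered 0 to 7 so, 15 as deposited, 12 with median centring, 6 with a filter at the 60th percentile, 7 with the Gapdh ratio, and 0 without the arrays numbered 1 or with array number in place of the ratio. The cause was not tested. Signal over background limits the 11 dim members.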
